A study of Mus musculus with 23 samples.

Results

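The 9 genes described here belong to the orexin system, the melanin-concentrating hormone (MCH) system and the endocannabinoid system, and were taken by symbol from 23373 named genes measured in 23 single neurons of the mouse arcuate hypothalamus. They are the orexin receptor genes Hcrtr1 and Hcrtr2, the MCH receptor gene Mchr1, the cannabinoid receptor gene Cnr1, and the endocannabinoid enzyme genes Dagla, Daglb, Mgll, Faah and Napepld. All 9 were found in the table. Each library came from 1 GFP-positive cell of a young adult male vGLUT2-IRES-Cre::loxSTOPlox-L10-GFP mouse on a mixed background, so all cells shared these Cre and reporter alleles, and there was no untreated or contrasting group. GFP fused to a ribosomal protein was switched on by Cre expressed from the gene of the glutamate transporter VGLUT2, which marks cells that have expressed it at some time and not only those that express it when picked. The labels name 2 mice and tie no cell to either, so the 23 cells form a single group in which no cell is a replicate of another. They are called cell 1 to cell 23 in accession order. The titles carry either of 2 prefixes without explanation: JCb5.2 for cells 1 to 15, here set 1 (15 cells), and JCb6 for the others, here set 2 (8 cells). No test between cells was made, and all values are descriptions.

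Orexins and MCH are peptides made by neurons of the lateral hypothalamus, which lies beside the arcuate nucleus, and both promote feeding. HCRTR1 prefers orexin A, HCRTR2 binds orexin A and orexin B, and both receptors signal mainly through Gq proteins and excite neurons. MCHR1 signals through Gi/o and Gq proteins and is found on the primary cilium of neurons. Endocannabinoids are lipids made on demand that act on CB1, the product of Cnr1, a Gi/o-coupled receptor on nerve terminals that lowers transmitter release. The main ones are 2-AG, made by the diacylglycerol lipases DAGLA and DAGLB and broken down mainly by MGLL, and anandamide, made in one route by NAPEPLD and broken down by FAAH.

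The libraries were those of neurons, with some differences that touch these genes. Of 6 neuronal markers, 5 reached 1 FPKM in 12 or more cells. FPKM counts fragments per kilobase of transcript and per 1000000 mapped fragments, so it allows levels of different genes to be compared. A gene is counted in a cell at or above 1 FPKM. The median cell had 7079 genes at this level, from 4049 in cell 17 to 8025 in cell 13, and libraries differed by up to 4.17-fold in relative depth, estimated from the ratios of their smallest values. Summed over 7 astrocyte markers, levels ran from 0.512 to 313 FPKM. They came mostly from Aldoc, which 21 of 23 cells had; Aldh1l1, Aqp4, Gja1 and Slc1a3 stayed under 1 FPKM in every cell. The 6 oligodendrocyte markers summed to 0.0341 to 54.7 FPKM, the 6 microglial ones to 0.0729 to 8.86 FPKM and the 5 tanycyte and ependymal ones to 0.317 to 258 FPKM, with Mog, C1qa and Rax listed at 0 throughout. The 4 endothelial markers summed to 0 to 18.4 FPKM, the 3 mural ones to 0.00790 to 4.54 FPKM and the 3 oligodendrocyte precursor ones to 0 to 8.85 FPKM, with Cldn5 listed at 0 throughout. Other members of these lists did reach 1 FPKM. Vim was in 14 cells, Foxj1 in 11, Mbp in 10, Rarres2 in 6, Mag and Pecam1 in 5 each and Csf1r in 3. Of the 5 markers of other nuclei, Nr5a1 and Pmch were listed at 0 throughout, while Avp reached 5186 FPKM and Oxt 3014 FPKM, both in cell 21. Avp was in 12 cells and Oxt in 11, among them all 8 cells of set 2. Cell 21, which is Pomc-high by the rule given later, was not among the cells left out below. 4 other cells stood apart from their labels or neighbours: cell 11 had 0.520 FPKM of Slc17a6, the VGLUT2 gene, cell 12 had 165 FPKM of Gfap and 258 FPKM of Vim, and in cells 20 and 23, labelled male, none of 4 Y-linked genes exceeded 0.127 and 0.143 FPKM. Xist was at 0.596 and 2.69 FPKM in these 2 cells, and at 2.51 to 5.26 FPKM in cells 3, 11, 13 and 19, where Y-linked genes reached 10.3 to 73.5 FPKM. Counts without cells 11, 12 and 23, and without cell 20 as well, are given where they matter.

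The 13 promoter windows listed for 8 of the 9 genes in RefSeq (GRCm38.p6; none was listed for Dagla) differed in CpG content. In the 250 bases before the start, Mchr1 and Hcrtr2 had 4 CpG pairs each, and the first windows of Mgll and Cnr1 had 23 and 36. The median over 32851 windows was 6, and 62.2% of all windows had 4 or more, against 13.3% with 23 or more. The letters TATAAA, on either strand, were in 0 of the 13 windows and in 12.4% of all windows. The windows of Mchr1 and of Mgll are shown because the set and peptide results described later turn on them. CG is in capitals, both run along the plus strand, and they lie at chr15:81235249-81235498 and chr6:88724162-88724411. These letters are a description, and nothing in these data measures the activity of either window.
Mchr1: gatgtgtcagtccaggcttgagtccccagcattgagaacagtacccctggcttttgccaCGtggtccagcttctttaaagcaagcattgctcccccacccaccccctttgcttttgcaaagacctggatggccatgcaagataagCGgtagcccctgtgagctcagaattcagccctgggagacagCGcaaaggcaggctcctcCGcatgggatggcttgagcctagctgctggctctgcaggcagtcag
Mgll: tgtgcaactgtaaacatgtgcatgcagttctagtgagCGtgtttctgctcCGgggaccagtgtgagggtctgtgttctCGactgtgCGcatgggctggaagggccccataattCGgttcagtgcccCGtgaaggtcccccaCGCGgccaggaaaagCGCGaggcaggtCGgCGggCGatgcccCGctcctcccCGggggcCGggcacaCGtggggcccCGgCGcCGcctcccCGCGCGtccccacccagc

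All 9 genes reached 1 FPKM in at least 1 cell, as did 63.6% of all genes, and 7 of the 9 reached 10 FPKM in a cell, against 71.1% of the genes that reached 1 FPKM. Hcrtr2 and Faah were counted in 12 or more cells, a level that 43.6% of the genes at 1 FPKM in any cell attained. In order of their shares, Hcrtr2 came first with 13 of 23 cells (56.5%; the 95% interval, exact Clopper-Pearson here and throughout, was 34.5 to 76.8%), Faah in 12 (52.2%, 30.6 to 73.2%), Daglb and Napepld in 11 each (47.8%, 26.8 to 69.4%), Mgll in 10 (43.5%, 23.2 to 65.5%), Mchr1 and Dagla in 7 each (30.4%, 13.2 to 52.9%), Cnr1 in 6 (26.1%, 10.2 to 48.4%) and Hcrtr1 in 2 (8.70%, 1.07 to 28.0%). Every neighbouring pair in this order had overlapping intervals, which cover counting error only. The interval of Hcrtr1 lay wholly below those of Hcrtr2 and Faah. All these shares come from the same 23 cells, which separate intervals do not take into account. The plot of cell shares shows that the order was not the same at 10 FPKM, where Faah led with 7 cells and Mchr1 and Daglb followed with 6.

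**Figure D1:**
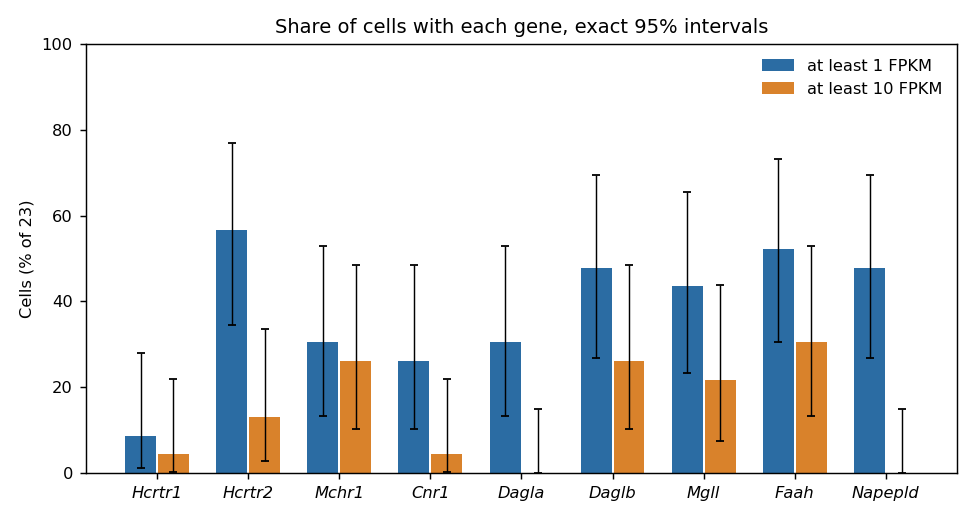
Share of the 23 cells (percent, vertical axis) at or above 1 FPKM (blue) and 10 FPKM (orange) for each gene, with exact Clopper-Pearson 95% intervals as bars. Mchr1 lost 1 of its 7 cells between both levels, while Dagla and Napepld lost all of theirs.

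The genes differed in their levels in the cells counted and in how low their other values reached. Among the cells counted for it, Mchr1 had a median of 22.9 FPKM, Faah 11.7, Daglb 10.4, Mgll 9.27, Hcrtr2 8.77, Cnr1 4.87, Napepld 1.93 and Dagla 1.87 FPKM. Dagla and Napepld were thus near the counting level in every cell that had them, with highest values of 2.41 and 4.08 FPKM. The highest values left out were 0.955 FPKM for Cnr1 in cell 12, 0.925 FPKM for Napepld in cell 20, 0.869 FPKM for Hcrtr2 in cell 14 and 0.862 FPKM for Dagla in cell 4. For Cnr1, the smallest value above 0 was 0.00538 FPKM, so 1 FPKM was 186 times larger. For Dagla and Mchr1 the corresponding ratios were 213 and 6.51. Hcrtr1, counted in 2 cells, had a median of 10.1 FPKM there and at most 0.295 FPKM elsewhere. Whether any gene was all-or-none was not tested.

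**Figure D2:**
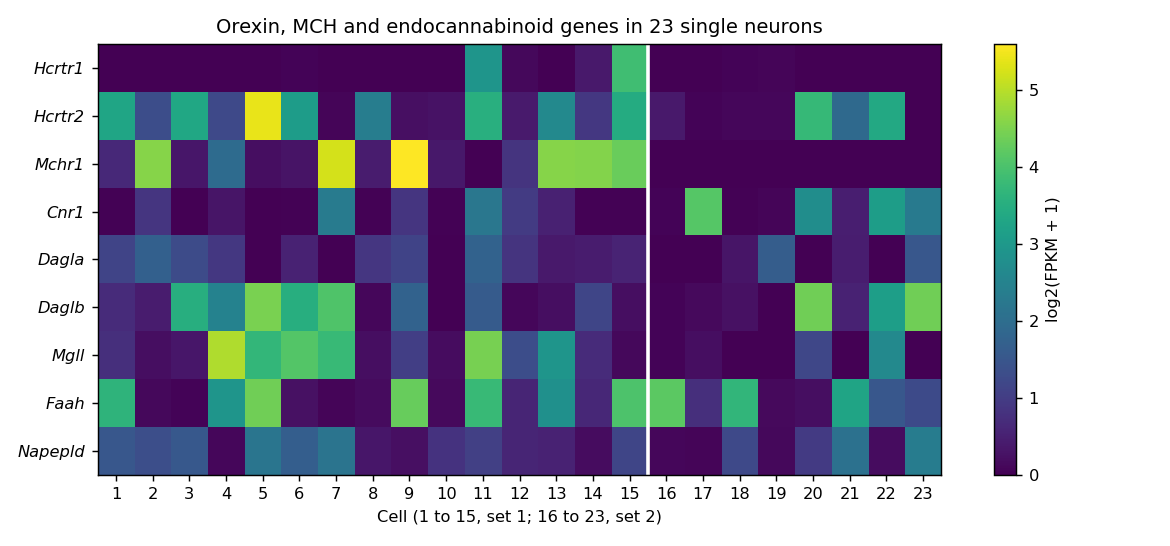
Level of each gene (rows) in each cell (columns) as log2(FPKM + 1), with a white line between set 1 and set 2. Cell 11 had 8 of the 9 genes at 1 FPKM and cell 10 had 0.

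Hcrtr2 was the more widespread orexin receptor (chromosome 9, 76225880 to 76323578 on mm10, minus strand, protein coding). Over the 23 cells its level had a median of 1.48 FPKM. The highest was 41.1 FPKM in cell 5, which was 3.30 times the next value, 12.5 FPKM in cell 20. Cell 11 had 10.5 FPKM, and cells 15, 22, 3, 1, 6, 13 and 8 had 9.93, 9.38, 9.01, 8.77, 7.51, 5.197 and 4.17 FPKM. Lower values of 2.75, 1.48 and 1.35 FPKM were found in cells 21, 2 and 4. The other 10 cells had at most 0.869 FPKM, and cell 23 was listed at 0. In set 1, 10 of 15 cells had Hcrtr2 and in set 2 3 of 8 did. These shares, 66.7% (38.4 to 88.2%) and 37.5% (8.52 to 75.5%), had overlapping intervals.

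Hcrtr1 (chromosome 4, 130130217 to 130139162, minus strand, protein coding) reached the counting level in cell 15, with 13.6 FPKM, and in cell 11, with 6.60 FPKM. It was listed at 0 in 16 cells and had at most 0.295 FPKM in the other 5. Both Hcrtr1 cells also had Hcrtr2, at 9.93 and 10.5 FPKM, so no cell had Hcrtr1 alone. Cell 15 was the cell with the highest Npy, 2660 FPKM, and Agrp, 433 FPKM, peptides of neurons that drive feeding. The other cell with high Npy, cell 10 at 2539 FPKM, was listed at 0 for Hcrtr1 and had 0.209 FPKM of Hcrtr2. Cell 11 is the cell with little Slc17a6, and without cells 11, 12 and 23 the count of Hcrtr1 was 1 of 20.

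The orexin and MCH peptide genes themselves were rarely listed. Hcrt, the orexin precursor, reached 19.4 FPKM in cell 22 and 8.83 FPKM in cell 3, and no other cell exceeded 0.591 FPKM. Cells 22 and 3 also had Hcrtr2, at 9.38 and 9.01 FPKM. Pmch, the MCH precursor, was listed at 0 throughout, and the upper limit for 0 of 23 cells is 14.8%.

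Mchr1 separated cells more sharply than any other of the 9 genes in log2 spread, with an SD of 2.08 on the log2(FPKM + 1) scale against 0.61 to 1.72 for the others (chromosome 15, 81235499 to 81238964, plus strand, protein coding). Cell 9 had 47.2 FPKM and cell 7 had 36.8 FPKM. Cells 2, 13, 14 and 15 followed at 22.9, 22.9, 22.4 and 18.9 FPKM, and cell 4 had 2.86 FPKM. All 7 were cells of set 1, where the share was 46.7% (21.3 to 73.4%). Every one of the 8 set 2 cells was listed at 0, for which the upper limit of the share is 36.9%, and both intervals overlapped. Of the genes that reached 1 FPKM in any cell, 0.074% shared this pattern of 7 or more cells in set 1 and a listing at 0 in all of set 2. The limit of 7 cells is the count of Mchr1 itself, which is among these genes, so the small share is no test of it.

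Low values of Mchr1 also followed the sets. In set 1, 7 further cells had 0.154 to 0.792 FPKM, and cell 11 alone was listed at 0. Each of these low values was 0.0870 to 0.449% of the summed Mchr1 of set 1. An index of reads shared between libraries, the median share of a set's sum found in a cell for genes that are high in 1 or 2 cells of that set, ran from 0.0414 to 0.689% in set 1. For 6 of the 7 cells the Mchr1 value was above what the cell's own index would give. In cell 8 it was only just above, at 0.341 against 0.336 FPKM. The part of such sharing in these values was not tested.

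Cnr1 was low in most cells and highest in set 2 (chromosome 4, 33924632 to 33948831, plus strand, protein coding). Cell 17 was highest with 16.4 FPKM. Cells 22, 20, 7, 23 and 11 had 7.64, 5.71, 4.03, 3.84 and 3.61 FPKM, which makes 6 cells counted. No cell was listed at 0, and the median of the 23 was 0.236 FPKM. In set 2, 4 of 8 cells had it (50.0%, 15.7 to 84.3%), and in set 1 2 of 15 did (13.3%, 1.66 to 40.5%). Cell 17 also had the fewest genes at 1 FPKM of all cells. Cnrip1, whose product binds the tail of the CB1 receptor, was far more widespread, at 1 FPKM in 22 cells with a median of 92.4 FPKM and a highest value of 399 FPKM, also in cell 17.

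Mean log2(FPKM + 1) differed by more than 1 between the sets for 3 of the 9 genes. Mchr1 was 2.26 in set 1 and 0 in set 2, and Mgll was 1.91 and 0.51. These are 2 of 9 genes higher in set 1, where 9.2% of the genes at 1 FPKM in any cell passed the same limit. Cnr1 was 0.55 and 1.61, 1 of 9 genes higher in set 2 against 4.27% of all. Differences for Daglb, Faah and Napepld were 0.01, -0.02 and 0.14. Since the labels do not say what the sets are, a batch and the kinds of cell picked in it cannot be told apart.

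**Figure D3:**
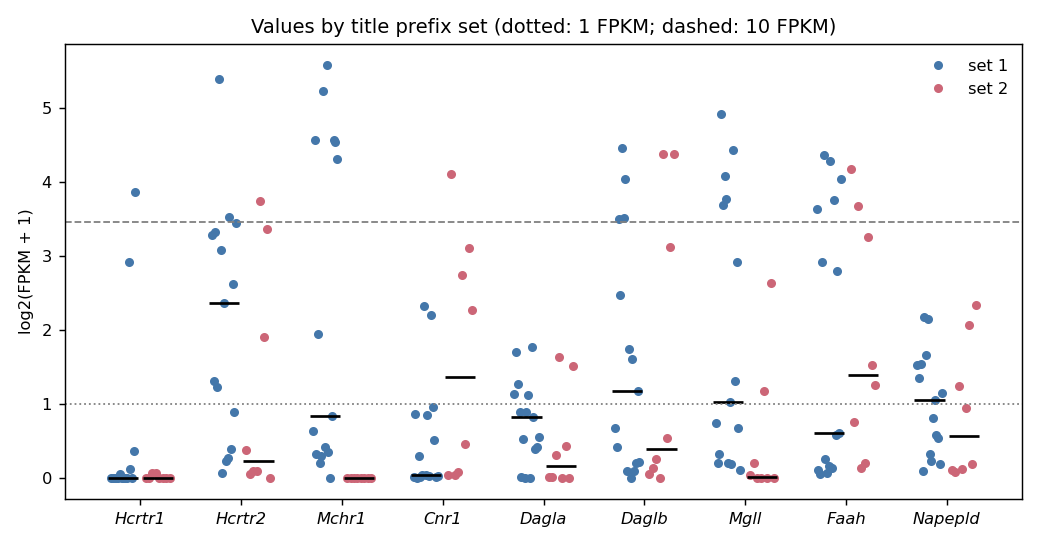
Level of each gene as log2(FPKM + 1) in the 15 cells of set 1 (blue) and the 8 cells of set 2 (red), with the median as a black line; the dotted line marks 1 FPKM and the dashed line 10 FPKM. Mchr1 lies at 0 in every cell of set 2, while Daglb and Faah span a similar range in both sets.

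Of the enzymes that make 2-AG, Daglb reached higher levels than Dagla. Their medians over all 23 cells were closer, at 0.605 and 0.451 FPKM, and neither was the higher in every cell. Daglb (chromosome 5, 143464493 to 143504442, plus strand, protein coding) reached 21.1 FPKM in cell 5, 19.9 FPKM in cells 20 and 23, 15.6 FPKM in cell 7 and 10.4 FPKM in cells 3 and 6. Cells 22, 4, 9, 11 and 14 had 7.77, 4.57, 2.37, 2.05 and 1.26 FPKM, and the remaining 12 cells had at most 0.605 FPKM. The GENCODE exons of Daglb overlap those of Rac1 on the opposite strand, and the sources used here do not say that counting used strand, so reads from both cannot be told apart where they overlap. Rac1 was at 33.9 to 271 FPKM in the 11 cells with Daglb and at 60.9 to 294 FPKM in the other 12, which overlap. Dagla (chromosome 19, 10245265 to 10304877, minus strand, protein coding) had values of 2.41, 2.27, 2.12, 1.87, 1.42, 1.21 and 1.18 FPKM in cells 11, 2, 19, 23, 3, 1 and 9. At least 1 of Dagla and Daglb was found in 14 cells, and both in cells 3, 9, 11 and 23.

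Mgll, the main 2-AG hydrolase, marked a smaller group of cells at high level (chromosome 6, 88724412 to 88828360, plus strand, protein coding). Cells 4, 11, 6, 7 and 5 were above 10 FPKM, with 29.4, 20.7, 15.99, 12.7 and 11.9 FPKM. Cells 13, 22, 12, 20 and 9 had 6.59, 5.22, 1.48, 1.27 and 1.05 FPKM. Highest among the other 13 cells was cell 1 at 0.680 FPKM, and cells 18, 19, 21 and 23 were listed at 0. GENCODE places exons of Gm26588 opposite those of Mgll; that gene was not analysed here. Other 2-AG hydrolases split into a uniform and a sparse gene: Abhd12 was in all 23 cells (median 99.7 FPKM, 8.60 to 166.5) and Abhd6 in 7, with at most 2.60 FPKM.

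A cell with Mgll usually had a lipase that makes 2-AG. Dagla or Daglb together with Mgll was found in 8 of 23 cells (34.8%, 16.4 to 57.3%), namely cells 4, 5, 6, 7, 9, 11, 20 and 22. The product of the separate shares would give 6.09 cells. All 8 of these cells had Daglb, and cells 9 and 11 also had Dagla, so 8 of the 10 Mgll cells had Daglb. Across the 23 cells, log2(FPKM + 1) of Daglb and Mgll had a Pearson r of 0.49 and a Spearman rho of 0.48, and in set 1 alone the Pearson r was 0.60. Among the 36 pairs of the 9 genes, 1 had an absolute Pearson r of 0.5 or more, Daglb with Napepld at 0.50. With a pseudocount of 0.1 that pair had 0.44, and the 1 pair past 0.5 was Daglb with Mgll at 0.54. The cells come from 2 mice and no label ties a cell to either, so no p is given for these values.

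Cnr1 was found with a 2-AG lipase in 5 of its 6 cells, cells 7, 11, 20, 22 and 23 (21.7% of all cells, 7.46 to 43.7%), and the product of the shares would give 3.65 cells. All 5 had Daglb, at 2.05 to 19.9 FPKM, and cells 11 and 23 also had Dagla. Without cells 11, 12, 20 and 23, Cnr1 was in 3 of 19 cells, 2 of them with a lipase. The exception was cell 17, the cell with the highest Cnr1, at 0.103 FPKM of Daglb and 0.00809 FPKM of Dagla. CB1 on a cell's own terminals and 2-AG made in the same cell are separate matters, and transcripts do not locate either.

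The anandamide genes Faah and Napepld were found in 12 and 11 cells, at unlike levels. Faah, the hydrolase (chromosome 4, 115996656 to 116017902, minus strand, protein coding), exceeded 10 FPKM in cells 5, 9, 16, 15, 11, 18 and 1, with 19.7, 18.6, 17.1, 15.5, 12.5, 11.9 and 11.4 FPKM. A further 5 cells (21, 4, 13, 22 and 23) had 8.57, 6.58, 5.96, 1.88 and 1.40 FPKM, and the other 11 were between 0.0357 and 0.692 FPKM. Napepld (chromosome 5, 21662903 to 21701345, minus strand, protein coding) was highest in cells 23, 5, 7 and 21 at 4.08, 3.53, 3.46 and 3.22 FPKM, and 7 more cells had 1.07 to 2.18 FPKM. Napepld together with Faah was found in 7 cells (30.4%, 13.2 to 52.9%), where the product of the shares gives 5.74. At 2 FPKM that joint count was 2 cells, cells 5 and 21, so it rests on the counting level.

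Some genes of other routes to and from anandamide were found in more cells, and others in fewer. Of 7 further genes of these routes, 6 reached 1 FPKM in a cell, as did 63.6% of all genes. In 12 or more cells, 4 of them did so, as did 43.6% of the genes at 1 FPKM in any cell. Gde1, a phosphodiesterase of an alternative route, was in all 23 cells (median 107 FPKM), and Gdpd1 in 21 (median 30.9 FPKM). Pla2g4e, an acyltransferase that makes the precursor, was in 16 cells (highest 26.4 FPKM), and Naaa, a lysosomal amidase, in 14 (highest 45.7 FPKM). Gdpd3 and Abhd4 were in 6 and 5 cells, and Ptgs2, cyclooxygenase 2, was listed at 0 throughout. The fatty acid carriers Fabp3 and Fabp5 were in all 23 cells at medians of 158 and 175 FPKM, and Fabp7 was listed at 0.

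Receptors beyond CB1 that bind cannabinoids or related lipids were sparse. Of 5 such genes 4 reached 1 FPKM in a cell: Gpr55 in 3 cells (highest 1.96 FPKM), and Cnr2, Gpr18 and Gpr119 in 1 each (values of 1.34, 8.80 and 7.91 FPKM in cells 11, 12 and 3). Trpv1 was listed at 0 throughout. By contrast, the Gi/o subunits that CB1 and MCHR1 couple to were present in every cell for Gnai1, Gnai2 and Gnao1, with medians of 77.6, 41.4 and 82.9 FPKM, while Gnai3 was in 12 cells.

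Transcripts of the Gq route were uneven. The subunits Gnaq and Gna11 were in 23 and 22 cells, with medians of 16.7 and 30.0 FPKM, but the phospholipases Plcb1, Plcb3 and Plcb4 were in 9, 3 and 1 cells and the sodium-calcium exchanger Slc8a1 in 5. Of 6 cilium genes, Bbs4 and Kif3a were in all 23 cells, the ciliary adenylyl cyclase Adcy3 in 17, Arl13b in 11, Ift88 in 9 and Tulp3 in 1. The bar plot of pathway genes gives each count.

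**Figure D4:**
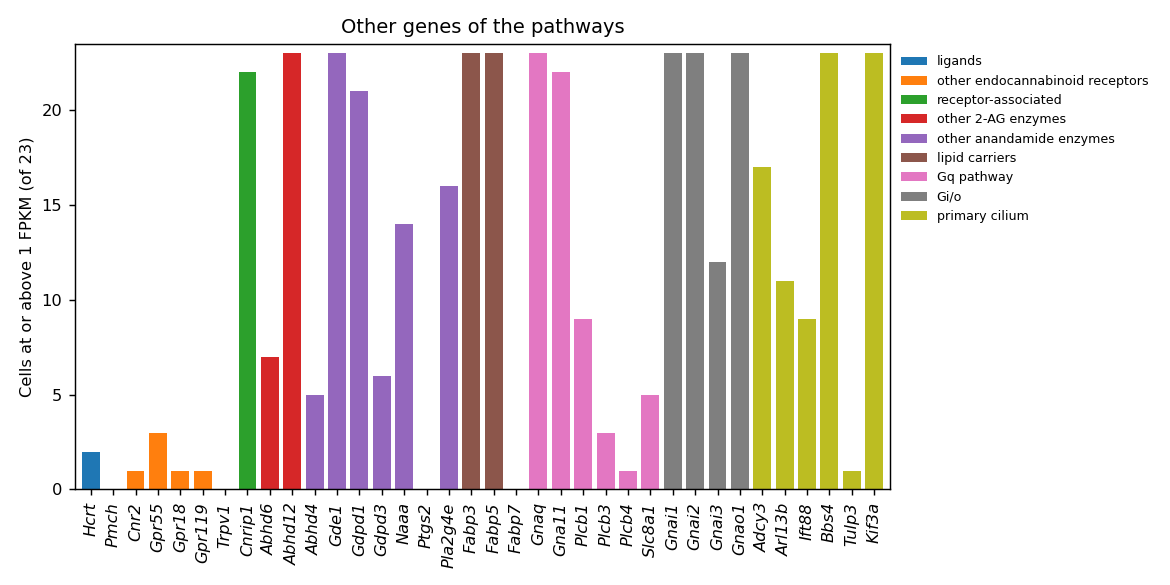
Number of cells, of 23, at or above 1 FPKM (vertical axis) for 36 other genes of these pathways, coloured by list. Bars for Abhd12, Gde1, Fabp3, Fabp5 and the main G protein subunits reach 23 or 22 cells, while 4 genes, Pmch, Trpv1, Ptgs2 and Fabp7, have no cell.

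Receptors of the 3 systems met in the same cell in pairs, and at 1 FPKM of the deposited values no cell had all 3. Of the 23 cells, 5 (cells 10, 12, 16, 18 and 19) had none of Hcrtr1, Hcrtr2, Mchr1 and Cnr1 at 1 FPKM. Orexin receptors alone were in 6 cells (1, 3, 5, 6, 8 and 21), Mchr1 alone in cells 9 and 14, and Cnr1 alone in cells 17 and 23. An orexin receptor with Mchr1 was in cells 2, 4, 13 and 15, an orexin receptor with Cnr1 in cells 11, 20 and 22, and Mchr1 with Cnr1 in cell 7. An orexin receptor with both others was in 0 cells, with an upper limit of 14.8%, and the product of the shares would give 1.03 cells. That count was 1, cell 2, at 0.5 FPKM or with each cell rescaled to a sum of 1000000, since its Cnr1 was at 0.828 FPKM beside 1.48 FPKM of Hcrtr2 and 22.9 FPKM of Mchr1. Mchr1 with Hcrtr2 was in 4 cells (17.4%, 4.95 to 38.8%) where the product gives 3.96, and Hcrtr2 with Cnr1 in 3 (13.0%, 2.78 to 33.6%) where it gives 3.39, so the joint counts were within 1 cell of the products. At 10 FPKM no cell had 2 of Hcrtr2, Mchr1 and Cnr1. Cell 15 did have an orexin receptor with Mchr1 at that level, with 13.6 FPKM of Hcrtr1 and 18.9 FPKM of Mchr1.

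Combinations with peptide genes were counted over peptide-high cells, defined as at least 100 FPKM and at least 10% of the gene's highest value. Pomc, which encodes the precursor of alpha-MSH, a peptide that lowers food intake, was high in 8 cells (4, 5, 6, 11, 12, 13, 21 and 22). Mgll was in 7 of these 8 cells and in 3 of the other 15, and Hcrtr2 in 7 of 8 and 6 of 15. Faah was in 6 of 8 and 6 of 15. Thus Mgll and Hcrtr2, 2 of the 9 genes, had a share at least 40 percentage points higher in Pomc-high cells, as did 4.01% of the genes at 1 FPKM in any cell; none of the 9 had one 40 points lower, as 0.706% of genes did. The limit of 40 points was chosen after the values were seen.

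The contrast depended on the limit for high Pomc. With 100 FPKM as the only condition, which made 14 cells Pomc-high, Mgll was in 8 of 14 and 2 of the other 9, and Hcrtr2 in 8 of 14 and 5 of 9, so that the shares of Hcrtr2 were 57.1% and 55.6%. With at least 25% of the highest value as the condition, cells 4, 6, 12 and 13 were Pomc-high; Mgll was in 4 of 4 and 6 of 19, and Hcrtr2 in 3 of 4 and 10 of 19, which is under 40 points. Without cells 11, 12 and 23, under the first limit, Mgll was in 5 of 6 and 3 of 14 cells and Hcrtr2 in 6 of 6 and 6 of 14. Faah was then in 5 of 6 and 5 of 14, a difference of 47.6 points, so it passed 40 points as well. It also did so without cell 20, at 44.9 points. The share of all genes past 40 points was not computed without these cells. Within the sets the counts for Pomc-high cells were small. Mgll was in 6 of 6 Pomc-high cells and 2 of 9 others in set 1, and in 1 of 2 and 1 of 6 in set 2. Hcrtr2 was in 5 of 6 and 5 of 9 in set 1, and in 2 of 2 and 1 of 6 in set 2. The Pomc-high cell without Mgll was cell 21, listed at 0, and the one without Hcrtr2 was cell 12, which had the highest Pomc of all, 9534 FPKM, and 0.319 FPKM of Hcrtr2. Outside the Pomc-high cells, Mgll was at 12.7 FPKM in cell 7, which had 412 FPKM of Pomc, and near the counting level in cells 9 and 20.

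Cartpt, the precursor of a satiety peptide found in many POMC neurons, was high in 7 cells, all of set 1 (3, 4, 5, 6, 10, 12 and 13). Mgll was in 5 of them and in 5 of the other 16. This made 1 of the 9 genes past 40 points, against 3.05% of genes in this direction, and within set 1 the counts were 5 of 7 and 3 of 8. None of the 9 was 40 points lower, as 1.04% of genes were. At 100 FPKM alone, where 19 cells were Cartpt-high, the direction turned, with Mgll in 8 of 19 and 2 of the other 4 cells. Under the first limit without cells 11, 12 and 23, the counts were 4 of 6 and 4 of 14, a difference of 38.1 points. Without cell 20 as well they were 4 of 6 and 3 of 13, a difference of 43.6 points. Cnr1 was in 0 of the 7 Cartpt-high cells and in 6 of the other 16, and within set 1 in 0 of 7 and 2 of 8.

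Mchr1 was counted against Sst, the somatostatin precursor. By the rule above 2 cells were Sst-high, cells 14 and 15, and both had Mchr1. With 100 FPKM as the only condition, a limit added after the data were seen, 5 cells were Sst-high, with 29792, 4394, 1342, 903 and 177 FPKM in cells 15, 14, 9, 2 and 12. Mchr1 was in 4 of these 5, all but cell 12, and in 3 of the other 18; within set 1 it was in 4 of 5 and 3 of 10. That was 1 of the 9 genes past 40 points, against 2.53% of all genes, and none of the 9 was 40 points lower, against 2.08%. The 3 Mchr1 cells with less Sst were cells 7, 13 and 4 at 41.2, 67.0 and 62.0 FPKM. Sst was at 18.6 FPKM or more in every cell of set 1 and listed at 0 in 7 of the 8 cells of set 2. Sst is itself among the genes that make up the sharing index. Applied to its set 1 sum, the index would give 255, 42.1 and 68.1 FPKM in cells 12, 7 and 13, each above the value there. Cells 2, 4, 9, 14 and 15 were above theirs, and for cell 4 the index would give 15.3 FPKM beside its 62.0 FPKM. Sharing of reads was not tested as a source of these values.

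Kiss1, the kisspeptin precursor of neurons that drive reproduction, was high in cells 8, 17, 19, 20 and 23. Cnr1 was in 3 of these 5 (17, 20 and 23) and in 3 of the other 18, which made 1 of the 9 genes past 40 points, against 1.53% of genes. In set 2 the counts were 3 of 4 and 1 of 4; in set 1, 0 of 1 and 2 of 14. In the other direction, Faah was in 1 of 5 Kiss1-high cells and in 11 of 18 others, 1 of 9 genes against 8.55% of all. Mchr1 was in 0 of the 5 and in 7 of the 18, all 7 in set 1, which held 1 Kiss1-high cell. Without cells 11, 12 and 23, Cnr1 was in 2 of 4 Kiss1-high cells and 2 of 16 others, a difference of 37.5 points, and without cell 20 as well in 1 of 3 and 2 of 16.

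**Figure D5:**
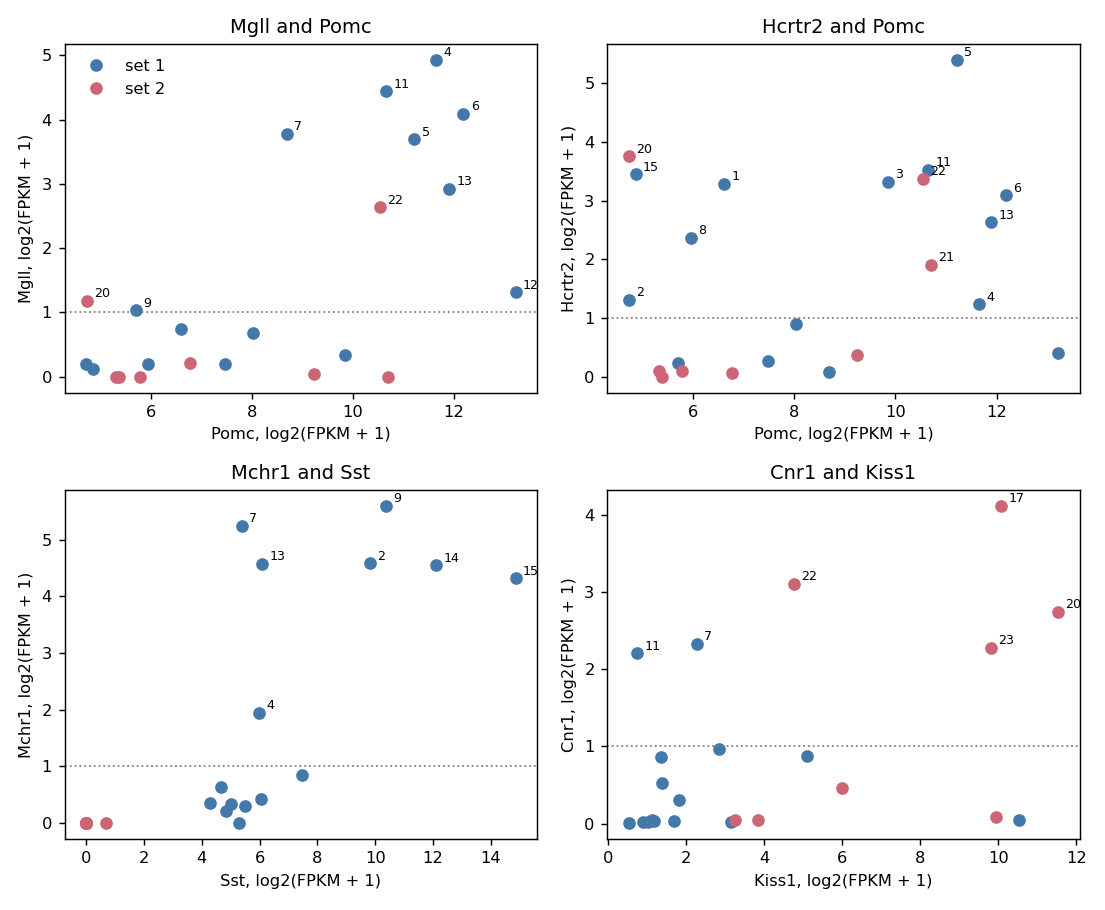
Level of Mgll, Hcrtr2, Mchr1 and Cnr1 (vertical axes) against that of a peptide gene (horizontal axes), all as log2(FPKM + 1), one point per cell, set 1 in blue and set 2 in red; cells at 1 FPKM or more of the vertical gene carry their number. Mgll points above the dotted 1 FPKM line lie mostly at high Pomc, and 4 of the 7 numbered Mchr1 cells lie at 903 FPKM of Sst or more.

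Other peptide genes had fewer or more evenly divided cells. Pdyn, the prodynorphin gene, was high in 13 cells. Mchr1 was in 1 of them (cell 13) and in 6 of the other 10, and within set 1 in 1 of 6 and 6 of 9. This was 1 of the 9 genes at least 40 points lower, against 1.61% of genes; none was 40 points higher, against 0.645%. In the 6 Gal-high cells Mgll was found in 4 and Hcrtr2 in 4, against 6 and 9 of the other 17. For transmitter genes, 12 of the 13 Hcrtr2 cells, all 7 Mchr1 cells and 5 of the 6 Cnr1 cells had Slc17a6 at 1 FPKM, as did 22 of all 23 cells, and the Hcrtr2 and Cnr1 cell without it was cell 11. Gad1 was found in 8 of the 13 Hcrtr2 cells, 4 of the 7 Mchr1 cells and 4 of the 6 Cnr1 cells, against 15 of all 23.

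The genes whose levels ran most closely with these across the 23 cells were taken as the 3 with the highest Pearson r of log2(FPKM + 1) among 11569 candidates. With so many candidates and 23 cells, high values are found for any gene, and they are given as a description. The closest was Ntsr1, the neurotensin receptor gene, with Mgll at r = 0.85; it was in 7 cells, all of which had Mgll, and r was 0.82 in set 1 alone. Cpne4 and Cckar, the cholecystokinin A receptor gene, followed for Mgll at 0.81 each. Mchr1 ran with Hip1 (0.78), Mkrn2 (0.76) and Sst (0.75), Cnr1 with Prrg1 (0.77), Jak2 (0.74) and Nt5dc3 (0.71, but 0.31 in set 1 alone), and Hcrtr2 with Csf1 (0.76), 6330408A02Rik (0.72) and Star (0.70). For the other enzymes the first in rank were Sacm1l for Dagla (0.71), Cspp1 for Daglb (0.73), LOC100861978 for Faah (0.73) and Brpf1 for Napepld (0.73).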

How the data were processed

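The values are FPKM as the authors deposited them, in a single table of genes by cells made with Cufflinks per the submitters' processing notes. They are recorded here as score values, since the deposited table, besides the FPKM made by the authors, holds 12 leftover spreadsheet rows, some below 0. Per the labels' protocols, cells were dissociated with papain, picked by hand and amplified with SmartSeq2. Those notes also name TopHat, CASAVA 1.8 and the mm10 genome. For the annotation, filters and other versions, the sources used here give nothing. SmartSeq2 lacks molecular identifiers, so the intervals cover counting error only and not amplification.

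From 23896 rows, the 12 leftover rows, 286 identical copies and 27 date-like names were left out, and rows of 124 symbols were summed, giving 23373 genes. Locus starts count from 0 and are printed from 1. An exact 0 is described as listed at 0. Absolute depth was not derived; relative depth is the most frequent ratio of low values to cell 12. It and the sharing index were tested on simulated data. The index rested on 13 genes in set 1 and 20 in set 2. The simulation had more genes and followed the model that the index assumes, so it does not show the accuracy of the index here. Doublets were not called, since tubes received hand-picked cells. Members, lists and peptide genes were chosen with earlier results of these data known. Named genes are the 9 members, list genes at 1 FPKM in a cell, and 3 genes per member by Pearson r, for members in at least 5 cells, among genes in at least 3 cells with loci of at least 500 bp; list genes at 0 and overlapping genes were added. Alternatives were other counting levels, rescaling to 1000000, a condition of 5% of the set's highest value, another pseudocount, set 1 alone, other peptide limits and leaving out 3 or 4 cells. Scripts ran in Python 3.11.15 with scipy 1.17.1 for intervals, pandas 2.3.3, numpy 2.4.6 and matplotlib 3.10.9.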

Additional observations from a re-analysis of the deposited data

How the results depend on the processing

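Counts of cells for all 9 genes and 7 combinations were compared with the exact 95% interval of their value at 1 FPKM. They stayed within that interval at 0.5 FPKM, after rescaling each cell, and with the condition of 5% of the set's highest value. The same held without cells 11, 12 and 23 or 11, 12, 20 and 23. These intervals are wide, so the check is weak: Cnr1 passed with 9 cells at 0.5 FPKM, against 6 at 1 FPKM. Summed FPKM per cell ran from 379230 to 687163, under the rescaled sum, so rescaling raised every value. It therefore acted like a lower counting level and was no separate check from 0.5 FPKM. Under both, Cnr1 and Mchr1 had 9 cells each and Mgll 12, while Daglb had 12 at 0.5 FPKM and 13 after rescaling. At 2 FPKM, Dagla fell to 3 cells, Napepld to 5, and Napepld with Faah to 2. At 10 FPKM, counts left that interval for Hcrtr2 (3 cells), Cnr1 (1), Dagla (0), Daglb (6), Mgll (5), Faah (7), Napepld (0), Dagla or Daglb with Mgll (3), and Hcrtr2 with Cnr1, Hcrtr2 with Hcrtr1, Mchr1 with Hcrtr2, Napepld with Faah, and Cnr1 with Dagla or Daglb (0 each). A pseudocount of 0.1 in place of 1 raised the number of genes differing by more than 1 in mean log2 between the sets from 3 to 5. In set 1 alone, 2 of 36 pairs had an absolute r of 0.5 or more, against 1. With 25% of the highest value as the limit, the Pomc-high and the Cartpt-high cells were the same 4 cells, and Mgll was in 4 of 4. Without cells 11, 12 and 23, with or without cell 20, choices made after seeing the data like the limit of 100 FPKM alone, Hcrtr2 was in 6 of 6 Pomc-high cells; without all 4, Daglb was in 0 of 3 Kiss1-high cells, against 2 of 5. A higher level leaves fewer cells by construction; for the other changes the cause was not tested. No paired analysis was possible because all cells form 1 group. With 23 cells of 2 mice that no label separates, most intervals of compared shares overlapped, which does not show that the shares are equal. The amplified low values set no firm lower limit on expression.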
